A study of Mus musculus with 8 samples.

Results

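Transcripts for the uptake, storage and export of iron were followed in mouse hepatoma cells exposed to hexavalent chromium, through 10 genes listed by symbol: Tfrc, Tfr2, Steap3, Slc11a2, Fth1, Ftl1, Slc40a1, Hamp, Aco1 and Ireb2. All 10 matched an Entrez gene among the 23403 genes of the RNA-seq count table. The cells were Hepa-1c1c7 (Hepa-1), an established line derived from a mouse liver tumour, and chromium was given as chromate, CrK2O4. RNA-seq compared 2 libraries made after 90 minutes in 25 µM Cr(VI) with 2 control libraries whose labels do not say which exposure they accompanied. FAIRE-seq, which recovers DNA that is not crosslinked to protein after formaldehyde fixation, compared 1 library from cells under the same 25 µM treatment with 1 control. It also compared 1 library of cells kept in 0.5 µM Cr(VI) over 20 passages with 1 control passaged as often without chromium. The question addressed was whether either exposure came with a difference in transcripts or in open chromatin at these genes. The labels do not say whether replicate libraries came from separate cultures. The p-values below weigh a difference against the spread between libraries of the same group, which need not be that between cultures.

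Cells take up iron bound to transferrin through the transferrin receptor, reduce it in the endosome and pass it to the cytosol, where the unneeded part is stored inside ferritin shells or exported through ferroportin. Liver is the main iron store of the body and the source of hepcidin, the hormone that removes ferroportin from the cell surface. When iron is scarce, the iron regulatory proteins Aco1 and Ireb2 bind a hairpin called the iron-responsive element, which blocks translation when it lies in the 5' UTR of a transcript and protects the transcript from decay when it lies in the 3' UTR.

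The hairpins of these genes are shown because they are the sequence feature that ties uptake, storage and export to the same regulators. RefSeq UTRs of GRCm38.p6 (mm10) were searched for a C, 5 bases, a loop that reads CAGTGN in DNA letters, and 5 bases that pair with the 5 before the loop, with at least 3 more pairs below the C. The 5' UTRs of Fth1, Ftl1 and Slc40a1 each held 1 match, and the 3' UTR of Tfrc held 4. Over all genes of the count table with an annotated UTR, 5 of 19154 (0.0261%) had a match in a 5' UTR and 8 of 19088 (0.0419%) in a 3' UTR. When 1 unpaired base was allowed after the loop, Slc11a2 was added through its 3' UTR, and the shares became 0.0679% and 0.11%. All sequences below lie within 1 exon and are written 5' to 3' on the strand of the gene, with the loop in capitals. Fth1 lies at chr19:9982735-9982757 (plus strand, 5' UTR), Ftl1 at chr7:45459782-45459804 (minus strand, 5' UTR), Slc40a1 at chr1:45925466-45925492 (minus strand, 5' UTR), the Tfrc matches between chr16:32631219-32631247 and chr16:32631710-32631738 (plus strand, 3' UTR), and Slc11a2 at chr15:100395155-100395178 (minus strand, 3' UTR).
Fth1: ctgcttcaaCAGTGCttgaacgg
Ftl1: ttgcttcaaCAGTGTttgaacgg
Slc40a1: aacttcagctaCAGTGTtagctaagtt
Tfrc, the match nearest the stop codon: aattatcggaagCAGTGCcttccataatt
Tfrc, the match farthest from it: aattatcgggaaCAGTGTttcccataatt
Slc11a2: catcagagcCAGTGTgtttctatg
The ferritin heavy and light chain matches shared 21 of 23 bases. A match is a run of letters with the right pairing, and binding by Aco1 or Ireb2 was not measured.

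The 4 RNA libraries held between 32319676 and 37696116 counts. The controls lay close together, with a Pearson r of 0.997 across genes and 83 tested genes over 2-fold apart. The treated libraries were less alike (r = 0.974, 1404 genes over 2-fold apart). Treated library 2 stood apart in composition, with 5.61% of its counts in its 10 most abundant genes against 4.13% in treated library 1 and 3.95% and 4.06% in the controls. It also carried the TMM scaling factor farthest from 1, 0.897. Values of both treated libraries are therefore given side by side.

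Under 25 µM Cr(VI), transcripts of both ferritin chains and of the exporter ferroportin were more abundant in both treated libraries than in both controls, and those of the transferrin receptor, the divalent metal transporter Slc11a2 and Aco1 were less abundant. The estimated fold was 2.29 for Fth1, 1.86 for Ftl1 and 2.03 for Slc40a1, against 0.646 for Tfrc, 0.695 for Slc11a2 and 0.687 for Aco1. These differences did not pass edgeR's quasi-likelihood test with Benjamini-Hochberg adjustment over all genes: 0 of 9 tested genes had an adjusted p under 0.05, where 631 of all 13619 tested genes (4.63%) had one. At an unadjusted p under 0.05, 6 of the 9 passed (Fth1, Slc40a1 and Hamp higher, and Tfrc, Slc11a2 and Aco1 lower), beside 30.7% of all tested genes. DESeq2 called 5 of the 9, Fth1, Ftl1 and Slc40a1 higher and Tfrc and Aco1 lower, beside 14.2% of all genes it tested. In 8 of the 9 both treated libraries lay on the same side of both controls (4 higher, 4 lower), as they did for 66.3% of all tested genes. Tfr2 was not tested because its counts were under the expression filter.

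The genes differed widely in level. In counts per kilobase of exon, scaled for depth (RPKM), control cells held a mean of 1290 for Ftl1 and 1040 for Fth1, followed by 95 for Tfrc, 36.8 for Aco1, 16.0 for Slc11a2, 9.26 for Ireb2, 2.99 for Slc40a1, 1.27 for Steap3, 0.239 for Hamp and 0.0144 for Tfr2. Neighbours in that order were separated in both control libraries, though the last 2 genes rest on 7 and 4 counts summed over the controls. In treated cells the order of the ferritin chains was not resolved, since Fth1 stood at 1760 and 3030 RPKM and Ftl1 at 1630 and 3160. By CPM (counts per 1000000 after TMM scaling for library composition), Fth1 ranked 28, Ftl1 43 and Tfrc 276 among all tested genes by the mean of the controls, and 9, 20 and 560 by the mean of the treated libraries.

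**Figure D1:**
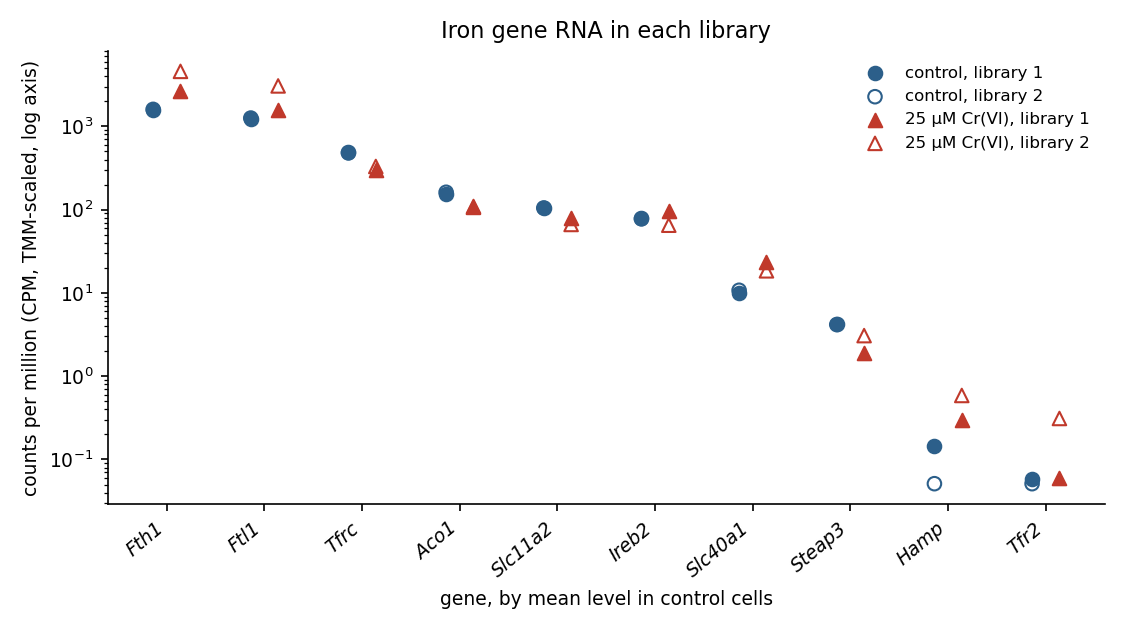
CPM of the 10 genes in each of the 4 RNA libraries, on a log axis, with genes ordered by their control mean. Circles are controls and triangles are cells after 90 minutes in 25 µM Cr(VI); filled symbols are library 1 and open symbols library 2. Both ferritin chains are highest in treated library 2, and Tfrc, Aco1 and Slc11a2 lie below both controls in both treated libraries.

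Of the uptake genes, Tfrc encodes the transferrin receptor, which carries iron-loaded transferrin into the cell. Its counts were 10195 and 9567 in the treated libraries and 17314 and 18774 in the controls, or 301 and 330 against 498 and 480 CPM. Both treated values lay below both control values, and the treated libraries differed from each other by less than they did from the controls. The log2 fold change was -0.63 (SE 0.131, 95% interval -0.98 to -0.28), with an adjusted p of 0.0711 in edgeR's quasi-likelihood test with Benjamini-Hochberg adjustment. In bulk RNA of this kind, fewer cells that make a transcript and less of it per cell cannot be told apart.

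Slc11a2, which encodes the transporter that moves ferrous iron out of the endosome, stood at 79.5 and 66.4 CPM in the treated libraries and 105.2 and 104.9 in the controls. Again the groups did not overlap. The log2 fold change was -0.53 (SE 0.131, 95% interval -0.88 to -0.17; edgeR quasi-likelihood, Benjamini-Hochberg adjusted p = 0.0923). Its exons share 106 bp with the antisense transcript Gm5475, which had 1 count or none in each library. Steap3, the reductase that prepares endosomal iron for Slc11a2, was far less abundant. It had 65 and 89 counts in the treated and 147 and 163 in the control libraries, a log2 fold change of -0.75 with a wide 95% interval of -1.56 to 0.05 (edgeR quasi-likelihood, Benjamini-Hochberg adjusted p = 0.181). Tfr2, the second transferrin receptor and an iron sensor of hepatocytes, was near the limit of detection, with 2 and 9 counts in the treated and 2 and 2 in the control libraries. Summed over each group, that is 0.175 CPM (exact 95% Poisson interval 0.0874 to 0.313) and 0.0541 (0.0148 to 0.139). Such intervals cover counting error only, and their overlap is not a test. Treated library 1 had as many counts as each control. The higher treated sum came from treated library 2 alone, so no group difference was shown.

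For storage, Fth1 encodes the ferritin heavy chain, which oxidises iron as it enters the shell. It had 89877 and 132749 counts in the treated libraries and 54107 and 62642 in the controls. Scaled by TMM, this was 2656 and 4581 against 1556 and 1602 CPM, so that treated library 2 was the highest of the 4 by far. The log2 fold change was 1.20 (SE 0.331, 95% interval 0.31 to 2.08; edgeR quasi-likelihood, Benjamini-Hochberg adjusted p = 0.106). Ftl1, the light chain that favours the mineral core, showed the same order of libraries, with 53512 and 88759 counts in the treated and 43112 and 49270 in the control libraries. Relative to the control mean, treated library 1 was 0.34 and treated library 2 was 1.29 higher on the log2 scale. The fitted log2 fold change was 0.89 (SE 0.366, 95% interval -0.08 to 1.87), with an adjusted p of 0.187 in edgeR's quasi-likelihood test with Benjamini-Hochberg adjustment. Together the ferritin chains took 0.436% and 0.685% of all counts in the treated libraries and 0.292% and 0.297% in the controls. The reference annotates 5 ferritin pseudogenes, none of them a gene of the count table, and how reads shared with them were counted is not stated, so the ferritin counts are uncertain to that extent.

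For export, Slc40a1 encodes ferroportin, the only known iron exporter of mammalian cells. Its counts were 806 and 534 in the treated libraries and 351 and 421 in the controls, or 23.8 and 18.4 against 10.1 and 10.8 CPM. Here treated library 1 was the higher of the pair, unlike for ferritin. The log2 fold change was 1.02 (SE 0.191, 95% interval 0.51 to 1.53), and edgeR's quasi-likelihood test with Benjamini-Hochberg adjustment gave an adjusted p of 0.0614, the smallest among the 9 tested genes. Hamp encodes hepcidin and was barely detected, with 10 and 17 counts in the treated and 5 and 2 in the control libraries. Its summed counts gave 0.43 CPM (exact 95% Poisson interval 0.283 to 0.625) in treated and 0.0947 (0.0381 to 0.195) in control cells. The log2 fold change of 2.15 had a 95% interval from 0.34 to 3.96 (edgeR quasi-likelihood, Benjamini-Hochberg adjusted p = 0.129), and was 2.99 without control library 1 and 1.56 without control library 2. The neighbouring paralogue Hamp2 had 1 and 7 counts in the treated and 2 and 0 in the control libraries, and reads that fit either gene could have been split between them.

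Of the regulators, Aco1, which is a cytosolic aconitase when it holds an iron-sulfur cluster and an RNA-binding regulator when it does not, had 112 and 106 CPM in the treated libraries and 156 and 162 in the controls. Its groups did not overlap and its log2 fold change of -0.54 had the smallest error of the 9 tested genes (SE 0.105, 95% interval -0.82 to -0.26; edgeR quasi-likelihood, Benjamini-Hochberg adjusted p = 0.0637). Ireb2, the regulator that is degraded when iron is plentiful, had 97.1 and 65.0 CPM in the treated libraries, which straddle the 79.4 and 77.5 of the controls. Its log2 fold change was 0.05 with a 95% interval from -0.53 to 0.63 (edgeR quasi-likelihood, Benjamini-Hochberg adjusted p = 0.901), and its sign reversed without library scaling (-0.045) and without treated library 1 (-0.26).

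**Figure D2:**
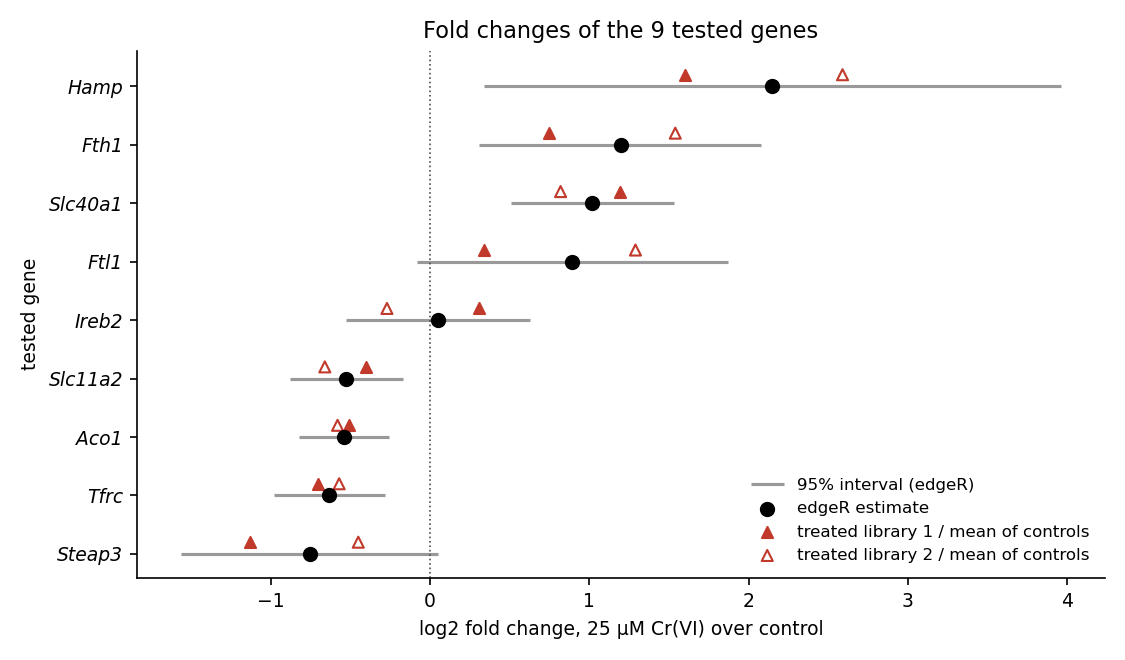
Log2 fold change of 25 µM Cr(VI) over control for the 9 tested genes. Black points are edgeR estimates with their 95% intervals as grey lines, and triangles give each treated library over the mean of the controls, filled for library 1 and open for library 2. The intervals of Ftl1, Ireb2 and Steap3 include 0, and Ireb2 has its treated libraries on opposite sides of 0.

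Which of these genes are called depends on the tool and on how the spread is estimated. DESeq2's adjusted p was 0.00052 for Fth1, 0.00356 for Slc40a1, 0.0164 for Tfrc, 0.03 for Ftl1 and 0.0485 for Aco1. With the replicate number as a block, edgeR called Fth1, Slc40a1, Slc11a2, Aco1 and Hamp, beside 21.8% of all tested genes. That fit also called Hmox1, a heme gene whose treated libraries lay at -0.11 and 2.56 on the log2 scale against the control mean. A call in it thus did not need treated libraries that were alike. Slc11a2 (adjusted p = 0.048) and Hamp (0.0141) passed edgeR's quasi-likelihood test with Benjamini-Hochberg adjustment in no other fit that kept both treated libraries. What the replicate number pairs is not stated. Over the 8 alternative fits that kept both treated libraries, adjusted p in edgeR or DESeq2 ran from 0.00052 to 0.646 for Fth1, from 0.00356 to 0.456 for Slc40a1, from 0.0164 to 0.699 for Tfrc, from 0.03 to 0.767 for Ftl1 and from 0.0473 to 0.668 for Aco1. The highest of these came from fits that left out a control library and so took the spread from the less alike treated libraries alone. Without treated library 1 or treated library 2, edgeR called 9 and 8 of the 9 genes, beside 77.6% and 67.2% of all genes tested in those fits, but then the spread comes from the closely matched controls alone and the lone treated library is assumed to vary as they do. The direction of 8 of the 9 genes was the same in all 10 alternatives, Ireb2 being the exception.

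Ratios of counts between genes within a library do not depend on the scaling of that library. Fth1 had 8.82 and 13.9 counts for each count of Tfrc in the treated libraries, against 3.13 and 3.34 in the controls. Ftl1 had 5.25 and 9.28 against 2.49 and 2.62. Tfrc had 12.6 and 17.9 counts for each count of Slc40a1 in the treated libraries and 49.3 and 44.6 in the controls. Fth1 had 1.68 and 1.5 counts for each count of Ftl1, against 1.26 and 1.27, and Aco1 had 1.15 and 1.64 for each count of Ireb2, against 1.96 and 2.09. No test was run on these ratios, and the controls varied less than the treated libraries in each of them.

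**Figure D3:**
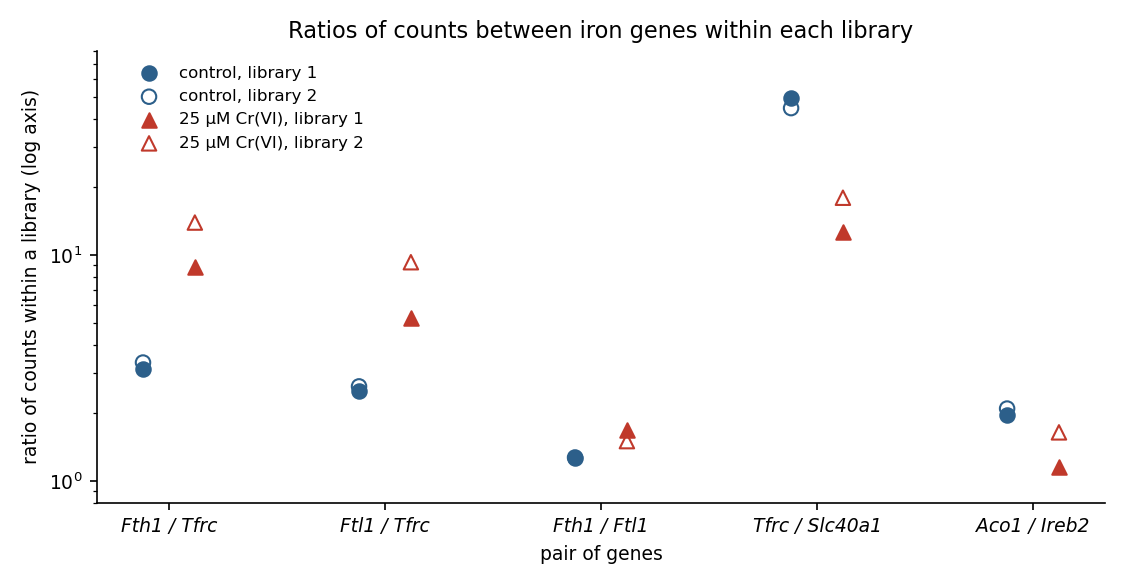
Ratio of the counts of paired iron genes within each RNA library, on a log axis. Circles are controls and triangles are cells treated with 25 µM Cr(VI), filled for library 1 and open for library 2. Treated and control libraries are apart in all 5 ratios, and the ratio of Tfrc to Slc40a1 is 12.6 and 17.9 in treated cells against 49.3 and 44.6 in controls.

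Beyond these 10, the count table held all 89 other iron genes that were listed, 80 of them above the filter. By edgeR's quasi-likelihood test with Benjamini-Hochberg adjustment 0 of the 80 were called. At an unadjusted p under 0.05 it was 22 (11 higher, 11 lower), or 27.5% beside 30.7% of all tested genes, and DESeq2 called 13 (7 higher, 6 lower), or 16.2% beside 14.2%. Counts for the single lists below are to be read against the same 30.7% and 14.2%. The median log2 fold change was 0.03, against -0.005 over all tested genes and 0.05 over the 9 tested genes of uptake, storage and export.

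The list of other uptake genes held the most DESeq2 calls, 7 of 11 tested (2 higher, 5 lower), with a median log2 fold change of -0.65, and edgeR called 0 with 6 at an unadjusted p under 0.05. The 7 that DESeq2 called were Trf and Steap4, higher in its fit, and, lower, Slc39a8, Steap1, Lcn2, Mcoln1 and Slc46a1. Trf, which encodes transferrin itself, was the most abundant, at 1432 and 2074 CPM in the treated and 1094 and 1111 in the control libraries (log2 fold change 0.67, SE 0.245). Of the transporters for iron not bound to transferrin, Slc39a8 stood at 14.3 and 11.7 CPM against 26.2 and 26.4, and its adjusted p of 0.051 (edgeR quasi-likelihood, Benjamini-Hochberg) was close to the threshold. By the same test it passed without the filter on low counts (0.0433), with bias-adjusted dispersion (0.0483) and with the replicate number as a block (0.00221). It did not pass without scaling (0.0785), with upper-quartile scaling (0.0511) or without either control library. DESeq2 gave Slc39a8 an adjusted p of 0.00133. Slc39a14 did not follow it, with 19.6 and 35.4 against 23.2 and 24.4 CPM. The other 5 called by DESeq2 were chosen after their values were seen. Of the relatives of the reductase Steap3, Steap1 was at 7.27 and 5.31 against 13.1 and 13.5 CPM, and Steap4, the other way, at 50.9 and 16.5 against 14.4 and 15.0. Lcn2, a carrier of iron-binding siderophores, was at 39.8 and 72.2 against 115.3 and 123.4, the lysosomal channel Mcoln1 at 31.8 and 23.2 against 46.1 and 46.4, and Slc46a1, a carrier of folate and heme, at 5.76 and 3.69 against 9.0 and 10.5.

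Among genes that load or empty ferritin, edgeR called 0 of 5 tested (1 at an unadjusted p under 0.05) and DESeq2 0. Ncoa4, the receptor that delivers ferritin to the lysosome, was level, with 101 and 96.4 CPM in the treated and 95.4 and 95.5 in the control libraries (log2 fold change 0.05, 95% interval -0.22 to 0.32). Pcbp2, an iron chaperone of ferritin, had 514 and 713 against 495 and 492. Of the export and oxidase genes edgeR called 0 of 5 (2 at an unadjusted p under 0.05), and DESeq2 called Heph, the membrane ferroxidase hephaestin. Heph, chosen after its values were seen, had 3.28 and 5.62 CPM against 17 and 16.5, with a log2 fold change of -1.91 (SE 0.305) and an adjusted p of 0.0501 in edgeR's quasi-likelihood test with Benjamini-Hochberg adjustment. It was called without scaling, without the low-count filter, with bias-adjusted dispersion and with the replicate number as a block. It was also called on leaving out any 1 library, either control library included, but not with upper-quartile scaling. The soluble ferroxidase Cp, ceruloplasmin, was the most abundant of that list, at 404 and 359 against 291 and 291 CPM (log2 fold change 0.39, SE 0.131). Exons of Cp, Heph, Pcbp2, Slc48a1, Steap1, Slc46a1 and Smad7 overlap a gene on the opposite strand, and since the use of strand in counting is not stated, reads of each pair cannot be told apart there. The partner of Heph, Hsf3, shares 29 bp with it and had 1 count in each treated library against 33 and 52 in the controls.

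The list of regulator turnover and of other transcripts listed for an iron-responsive element held 9 tested genes and no call by edgeR (0 at an unadjusted p under 0.05) or DESeq2 (0). In the hairpin search above, Alas2 was the only gene of this list with a match, and Cdkn1a had none. Fbxl5, the iron-sensing subunit of the ligase that degrades Ireb2, was at 72.2 and 47.8 CPM against 47.2 and 46.7. Cdkn1a, the cell cycle inhibitor p21, was the most abundant and differed mainly in treated library 2, with 438 and 1750 against 361 and 364. Its log2 fold change was 1.59 with all libraries and 0.27 without treated library 2. With the replicate number as a block, which called 21.8% of all tested genes, edgeR called Cdkn1a with a log2 fold change of 1.27. The adjusted p was 0.00113 (edgeR quasi-likelihood, Benjamini-Hochberg).

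Hepcidin control was represented by 17 tested genes, of which edgeR called 0 (5 at an unadjusted p under 0.05) and DESeq2 called Hfe and Smad7 as higher. Hjv, the hemojuvelin co-receptor, had no count in the treated and 2 and 1 counts in the control libraries. The most abundant gene of the list, the BMP target Id1, had 416 and 227 CPM against 247 and 257, and its sign turned without treated library 1 (-0.14). Tmprss6, the protease that cleaves hemojuvelin, was chosen after its values were seen: 17 and 20 counts against 1 and 3, with an adjusted p of 0.0524 in edgeR's quasi-likelihood test with Benjamini-Hochberg adjustment. It was called with bias-adjusted dispersion, with the replicate number as a block and without either treated library. It was not called by DESeq2, without scaling, without the low-count filter, with upper-quartile scaling or without either control library.

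Mitochondrial iron and iron-sulfur cluster genes numbered 18, all tested, with 0 called by edgeR (3 at an unadjusted p under 0.05) and 1 by DESeq2, the iron importer Slc25a28. Their median log2 fold change was 0.01. The chaperone Hspa9 was the most abundant, at 652 and 954 CPM in the treated and 799 and 801 in the control libraries. Of 15 heme genes edgeR called 0 (5 at an unadjusted p under 0.05) and DESeq2 called Blvrb and Slc48a1 as higher. Hmox1, the heme oxygenase that frees iron from heme, had 49.9 CPM in treated library 1, 316 in treated library 2 and 52.1 and 55.2 in the controls. The difference thus lay in treated library 2 alone, and without it the log2 fold change was -0.11, against 1.77 with all libraries. Without control library 1 or control library 2 its adjusted p was 0.0447 and 0.0394, and it ran from 4.91e-06 to 0.334 over the alternatives that kept both treated libraries (edgeR quasi-likelihood or DESeq2, Benjamini-Hochberg). Slc48a1, a heme transporter, was the most abundant of the list per length, at 351 and 552 against 273 and 277 CPM.

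**Figure D4:**
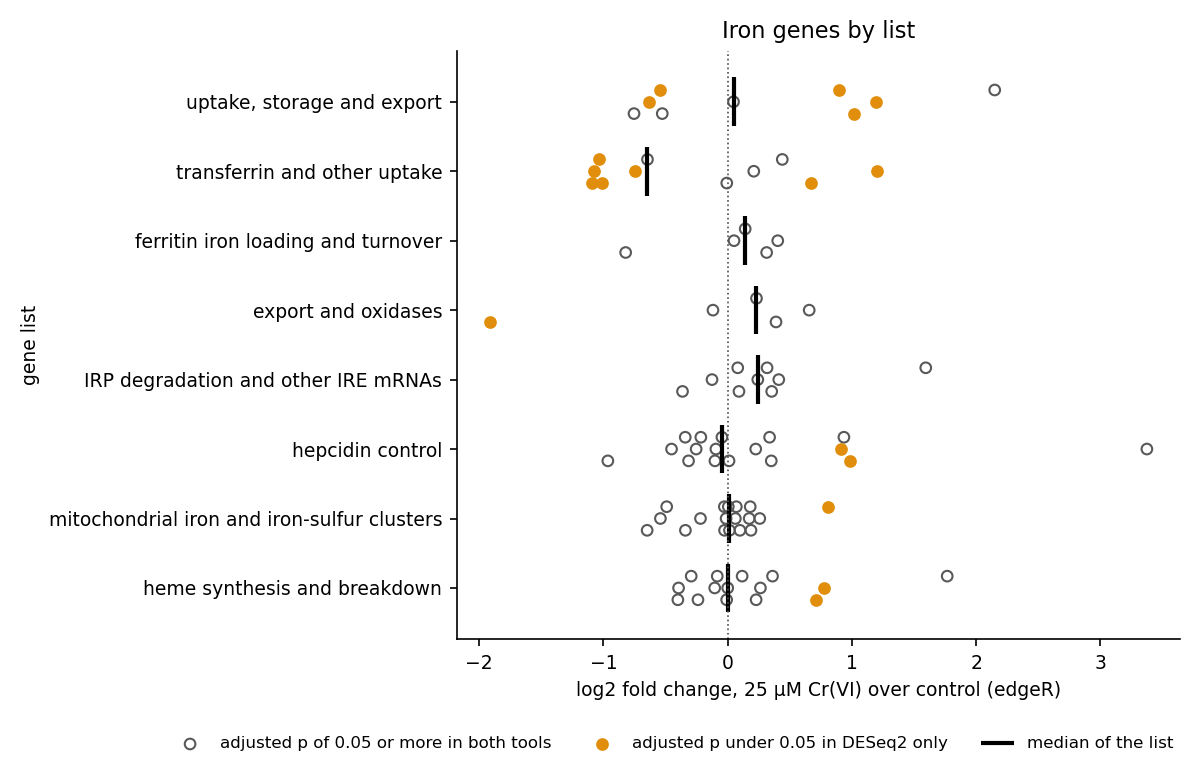
Log2 fold change (edgeR, 25 µM Cr(VI) over control) of each tested iron gene, grouped by list, with a vertical bar at the median of each list. Filled orange points had an adjusted p under 0.05 in DESeq2, and no gene shown had one in edgeR. The list of other uptake genes has its median at -0.65 and the others lie between -0.05 and 0.24.

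Markers were read to see what the libraries held. Hepatocyte markers (11 genes) summed to 6020 and 6650 CPM in the treated libraries and 3130 and 3250 in the controls. Alb was at 3666 and 3547 against 904 and 947 CPM, and the other 10 summed to 2350 and 3110 against 2220 and 2300. Krt8, Krt18 and Afp were also well detected, while Apoa1 and Hnf4a had 15 counts or fewer in each library. Of 9 tested, Alb and Ttr rose in edgeR's quasi-likelihood test with Benjamini-Hochberg adjustment (adjusted p = 0.0317 and 0.0332), with log2 fold changes of 1.96 and 2.46, and DESeq2 called 3. Ttr had 61 and 57 counts against 12 and 13. Macrophage markers (6 genes, led by Csf1r, with Marco at 0) summed to 42.4 and 60.5 against 58.5 and 58.6 CPM, and 0 of 3 tested were called by either tool (1 at an unadjusted p under 0.05). Erythroid markers (6 genes, led by Hba-a1, with Hbb-bs at 0) summed to 9.28 and 15.0 against 5.23 and 5.93, with 0 of 3 called by edgeR or DESeq2 and 3 at an unadjusted p under 0.05. Of those 3, Hba-a1 and Hba-a2 had nearly the same counts (129 and 207 against 81 and 103, and 129 and 205 against 81 and 103), so reads that fit both may have been counted in each. Endothelial markers (5 genes, led by Pecam1, with Cdh5 at 0) summed to 2.48 and 2.59 against 0.92 and 1.07, and 1 of 2 tested, Pecam1, was called by both tools. Fibroblast and stellate cell markers (6 genes, led by Col1a1, with Lrat at 0) summed to 328 and 419 against 261 and 264, with 0 of 4 called by edgeR or DESeq2 and 0 at an unadjusted p under 0.05. The part of these differences in the values of the iron genes was not tested.

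FAIRE peaks mark DNA that was more open in treated than in control cells. The 25 µM list held 2945 peaks, and 1 of the 10 genes, Tfr2, had a peak within 10 kb of its span, where 9.24% of 23276 annotated genes of the count table had one. The 0.5 µM list held 860 peaks, and 0 of the 10 genes had such a peak, against 2.98% of all genes. The authors' table of genomic elements accounts for as many peaks as each list holds, while the totals in their text are somewhat higher. The counts here cover the listed peaks only. The call rests on 1 library per condition, the number of reads under each peak is unknown, and the lists hold no regions that were more open in controls.

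The Tfr2 peak is shown because it was the sole peak of either list within 10 kb of the span of any of the 10 genes. It covered 185 bases at chr5:137593098-137593282 (mm10), 5017 bp past the end of Tfr2 and 3363 bp before the nearest edge of Mospd3. Whether another gene spans it was not checked. The peak had a MACS score of 71.5, where the score is 10 times the negative log10 of the p-value. Its centre lay 22.2 kb downstream of the nearest Tfr2 start site. It held 1 match to the AP-1 letters TGANTCA, searched on both strands, which 14.4% of the 2945 peaks of that list also held. In the plus strand below, the match is in capitals.
Tfr2 peak: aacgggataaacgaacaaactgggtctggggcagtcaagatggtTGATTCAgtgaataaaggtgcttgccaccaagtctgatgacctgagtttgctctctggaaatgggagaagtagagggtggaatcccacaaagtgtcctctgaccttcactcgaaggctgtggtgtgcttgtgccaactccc
Tfr2 RNA was near the detection limit, as given above, so the peak could not be set beside a transcript difference.

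The other genes lay farther from a peak. The nearest 25 µM peak was centred 56.2 kb downstream of the start site of Tfrc, 70.3 kb downstream for Slc11a2, 75.3 kb for Aco1, 99.8 kb for Hamp, 167.6 kb for Ftl1, 178.0 kb for Steap3, 201.7 kb for Fth1 and 244.5 kb for Ireb2. For Slc40a1 it was 2289.7 kb away. The median of the 10 distances was 134 kb, against 220 kb over all annotated genes. For the 0.5 µM list the distances ran from 275.3 kb at Tfr2 to 2383.9 kb at Aco1, with a median of 1140 kb against 865 kb over all genes. In both lists 0 of the 10 genes had a peak centre within 1000 bp of a start site, where 1.05% and 0.851% of all genes had one. Among the 89 other iron genes, 11 had a 25 µM peak within 10 kb (9.24% of all genes) and 1, Bmp6, had a 0.5 µM peak (2.98%). Of the 11, chosen after their values were seen, Pcbp4 had a peak centred 370 bp downstream of a start site (score 74.8) and Acvr1 had one 1.0 kb upstream of a start site, within an intron of a longer transcript (score 80.8).

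**Figure D5:**
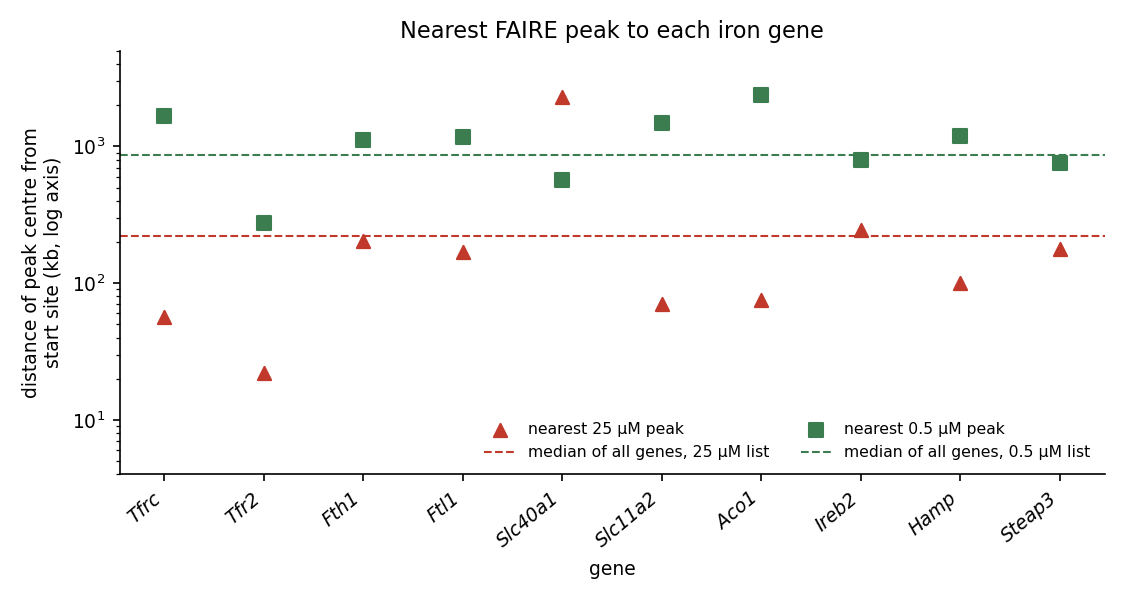
Distance in kb, on a log axis, from a start site of each of the 10 genes to the centre of the nearest FAIRE peak, for the 25 µM list (triangles) and the 0.5 µM list (squares). Dashed lines are the medians over all annotated genes, 220 kb and 865 kb. The closest is the 25 µM peak at Tfr2, 22.2 kb away.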

How the data were processed

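RNA-seq values were raw read counts per Entrez gene, which the authors made by aligning reads of poly-A libraries to mm10 with TopHat and deposited without normalization; the counting tool, its annotation and its use of strand are not stated. The peak score in each deposited BED list is that of MACS at default settings, run by the authors on BWA alignments of 1 treated against 1 control library.

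Counts of the 4 RNA libraries were fitted in edgeR 4.0.16 (R 4.3.3) with filterByExpr, TMM scaling and the two-sided quasi-likelihood test, with Benjamini-Hochberg adjustment over 13619 genes at 0.05. The standard error is the absolute log2 fold change over the square root of F, and 95% intervals use the t distribution of the test. DESeq2 1.42.0 was an alternative, and both were tested on simulated data. The simulation gave both groups the same spread, unlike the real libraries, so it does not bear on where the tools differ. RPKM used the union of RefSeq exons, and 23276 of 23403 genes had a RefSeq model. Peaks were assigned where they shared at least 1 bp with a gene span extended by 10 kb. Sequences came from RefSeq GRCm38.p6, read with pysam 0.24.0, and no peak passed a chromosome end of that build (0 of 2945 and 0 of 860).

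The 10 genes and the lists were chosen with earlier results of these data known. Genes named besides the 10 were the direct partners Hmox1, Trf, Ncoa4, Fbxl5, Hjv, Slc39a14, Slc39a8 and Cp, the most abundant gene per length of each list, and any gene called by edgeR (0). Other genes were named after their values were seen. Values of 1 further partner and 1 marker are not reported here, though both count in their lists. Upper-quartile scaling and bias-adjusted dispersion were alternatives added after the data were seen.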

Additional observations from a re-analysis of the deposited data

How the results depend on the processing

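edgeR called 631 genes in all (4.63%), 0 of the 9 tested genes of iron uptake, storage and export (6 at an unadjusted p under 0.05) and 0 of the 80 others (22 at an unadjusted p under 0.05). DESeq2 called 2015 (14.2%), 5 and 13. With the replicate number as a block the counts were 2969 (21.8%), 5 and 17; the labels do not say what a number pairs, and same-numbered libraries shared little of their deviation (r = 0.091 across genes). Without scaling beyond library size, which shifted the median log2 fold change of all genes to -0.11, 1 (Tfrc) and 1 were called, beside 3.35% of all genes. With no filter on low counts 2 of the others were called (4.12% of all genes), and with bias-adjusted dispersion 3 (5.21%). Upper-quartile scaling called 0 of either (4.6%). Leaving out 1 library gave from 287 to 10995 genes (2.02% to 77.6%), from 0 to 9 of the uptake, storage and export genes and from 2 to 69 of the others, the high ends without a treated library, where the spread comes from the controls alone. Of the values for single genes of the 9, 17 of 36 from leaving out a library and 11 of 54 from other settings had an adjusted p under 0.05; all 17 came without a treated library, where 77.6% and 67.2% of all genes were called. Signs turned without scaling for Ireb2 (-0.045), Ncoa4 (-0.058) and Hspa9 (-0.13), and for Hspa9 also with the block (-0.02) and without the filter (-0.026). Leaving out 1 library moved log2 fold changes from -0.26 to 0.31 for Ireb2, from -0.14 to 0.72 for Id1, from -0.30 to 0.27 for Hspa9, from -0.11 to 2.57 for Hmox1 and from -0.28 to 0.59 for Slc39a14. The cause was not tested beyond the source of the spread.

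Of the 10 genes, 1 had a 25 µM peak by the 10 kb rule (9.24% of all genes), 0 by the gene span alone (5.95%), 4 within 50 kb (20.9%), 0 with a peak centre within 1000 bp of a start site (1.05%) and 0 at a score of at least 100 (0.103%). The 0.5 µM count was 0 under each of these rules, where 2.98%, 1.96%, 6.35%, 0.851% and 0.0773% of all genes had such a peak. Depth limits Tfr2 and Hamp, with at most 17 counts in a library.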

Other observations

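The promoter set used (GRCm38.p6, 250 bases before to 50 after a start site) covered 8 of the 10 genes, with 15 promoters in all. It had no entry for Slc40a1 and Slc11a2, so these were not searched, though both have an annotated start site. The AP-1 letters TGANTCA were found, on either strand, in 1 of the 15, a promoter of Hamp, and in 7.28% of 21450 promoters of all genes in the count table. The antioxidant response element letters TGACNNNGC were found in 0 of the 15 and in 13.1% of all promoters. The absence of these letters in a window says nothing of the factors that read them.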
